A study of Mus musculus with 8 samples.

Results

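The Gadd45 family was examined in mouse mesenchymal stem cells (MSCs, stromal cells of bone that can form bone, fat and cartilage) cultured at 2% oxygen (hypoxia) or 21% oxygen (normoxia). Its members were found by symbol, Gadd45a, Gadd45b and Gadd45g, and are 3 of the 53465 genes in the count table. RNA-seq libraries were made from 4 hypoxia-cultured and 4 normoxia-cultured samples of wild-type male C57BL/6 N mice aged 3 to 5 months. The study describes sorting Sca-1+/CD140a+/CD45-/TER-119- cells that had grown out of hind limb bone at low oxygen, and dividing the sorted cells between the oxygen conditions, so all samples share a period at low oxygen and the cells are primary cultures rather than a line or clone. The family was selected on the normoxia against hypoxia difference of Gadd45g in these same samples, which is among the largest increases of any gene. The difference of its members between the oxygen levels is therefore given as a description, without a test.

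Gadd45 proteins (growth arrest and DNA damage inducible) are small nuclear stress sensors with no known enzymatic activity, which act by binding other proteins. They bind and activate the kinase Mekk4 (Map3k4) upstream of p38 and JNK, they bind the replication clamp Pcna and the inhibitor p21 (Cdkn1a), they can inhibit the mitotic kinase Cdk1 with cyclin B1, and Gadd45a has been linked to removal of DNA methylation. The members are induced by different signals, Gadd45a classically by p53 after DNA damage, and Gadd45b by TGF-beta and NF-kappaB.

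The genes lie on different chromosomes of the GRCm38 (mm10) assembly. Gadd45a (ENSMUSG00000036390) is on chromosome 6 from 67035096 to 67037457, on the minus strand. Gadd45b (ENSMUSG00000015312) is on chromosome 10 from 80930073 to 80932204 and Gadd45g (ENSMUSG00000021453) on chromosome 13 from 51846678 to 51848468, both on the plus strand. The annotation places 1 other gene over a member, the antisense transcript E230016M11Rik over Gadd45a. It had 1 to 6 counts per sample. Whether counting used strand is not stated, so the effect of this overlap on the Gadd45a counts cannot be read from that number.

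The sequences just upstream of the 3 genes are shown because the transcripts of the members moved unequally, so that a reader can see where the genes share promoter letters. They come from RefSeq (GRCm38.p6), in which all 3 symbols were found, and end before the most upstream start in RefSeq or GENCODE. They run 5′ to 3′ on the strand of the gene. Capitals mark matches, on either strand, to GCGTG, to CACGTG (an E-box), to CCAAT (the NF-Y motif), to TATAAA (the TATA box) and to ATTTGCAT (the octamer bound by Oct-1).
Gadd45a (200 bases, chr6:67037458-67037657, minus strand): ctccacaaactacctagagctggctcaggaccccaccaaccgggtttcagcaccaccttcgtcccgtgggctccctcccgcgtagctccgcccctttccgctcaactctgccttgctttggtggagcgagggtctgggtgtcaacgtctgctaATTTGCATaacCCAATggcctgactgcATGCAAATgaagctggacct
Gadd45b (232 bases, chr10:80929841-80930072, plus strand): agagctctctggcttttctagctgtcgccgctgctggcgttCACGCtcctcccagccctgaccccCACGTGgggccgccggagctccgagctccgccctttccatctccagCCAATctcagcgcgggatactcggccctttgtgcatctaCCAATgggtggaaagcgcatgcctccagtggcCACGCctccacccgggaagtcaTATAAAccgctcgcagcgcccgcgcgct
Gadd45g (250 bases, chr13:51846425-51846674, plus strand): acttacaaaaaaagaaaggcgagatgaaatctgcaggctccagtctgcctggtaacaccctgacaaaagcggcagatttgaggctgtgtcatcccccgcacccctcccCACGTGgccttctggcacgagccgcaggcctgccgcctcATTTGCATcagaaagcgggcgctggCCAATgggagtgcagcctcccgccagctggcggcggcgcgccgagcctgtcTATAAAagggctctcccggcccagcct

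Gadd45b and Gadd45g each held 1 CACGTG, 1 TATAAA and at least 1 CCAAT, whereas Gadd45a held neither CACGTG nor TATAAA. The octamer ATTTGCAT stood 2 times upstream of Gadd45a and 1 time upstream of Gadd45g, and was not found in the Gadd45b window. GCGTG was found only upstream of Gadd45b, 2 times. Of the 32851 windows of 250 bases in the RefSeq table, 6.02% hold CACGTG, 12.4% TATAAA, 33.8% CCAAT, 28.2% GCGTG and 1.6% ATTTGCAT. CACGTG also holds ACGTG on both strands. ACGTG was searched too, is held by 16.6% of the RefSeq windows, and was found nowhere else in the windows printed above. These matches describe letters and do not show that a factor binds there.

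Total counts were 25132141 in hypoxia replicate 1 and 12898291 to 13433824 in the other 7 samples. A count of 3, used here as the lowest level to be read from a sample, equals 0.119 to 0.233 CPM (counts scaled to library size). Of the MSC markers, Pdgfra and Ly6a, which encode the sorted surface proteins CD140a and Sca-1, were at 7.44 and 8.76 log2 CPM in hypoxia and 7.68 and 8.61 in normoxia (means of 4 samples each). Of all 9 MSC markers 5 changed (limma-trend adjusted p under 0.05), 2 higher and 3 lower in normoxia, where 34.6% of all tested genes did. With samples of the same number as pairs all 9 changed, 3 higher and 6 lower, where 46.0% of all tested genes did. Markers of macrophages and blood were present as well, and all 9 of the list passed the filter on low counts. Their summed level ranged from 515 to 1020 CPM in hypoxia and from 619 to 1160 CPM in normoxia. Among them Lyz2 rose by 0.56 (standard error 0.17, limma-trend adjusted p = 0.022) and the other 8 were not past the threshold of 0.05 set on the adjusted p-value. The call of Lyz2 was lost without normoxia replicate 3 or 4 (limma-trend adjusted p = 0.068 and 0.057). With samples of the same number as pairs, 5 of the 9 were lower and 1 was higher, beside 22.7% lower and 23.3% higher over all tested genes. The part of these cells in the Gadd45 results was not tested. The haemoglobin genes Hba-a1 and Hbb-bs, markers of erythroid cells, had no count in any sample, and of 5 endothelial markers Emcn had none and Pecam1 and Cdh5 had at most 2 and 3 counts. The other 2, Kdr and Tek, had 1 to 10 and 13 to 33 counts per sample and were not past the threshold.

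Gadd45g, the member with the highest level per length, was far higher in normoxia. Its counts were 998, 403, 419 and 410 in hypoxia replicates 1 to 4 and 1504, 1691, 1763 and 1604 in normoxia replicates 1 to 4. Scaled to library size by TMM and expressed as log2 CPM with a prior count of 3, these were 5.39, 5.02, 5.04 and 4.99 in hypoxia and 6.81, 6.93, 6.99 and 6.92 in normoxia. Every normoxia sample lay above every hypoxia sample. Hypoxia replicate 1 was the highest of its group, and normoxia replicate 1 the lowest of its own.

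The mean of Gadd45g was 5.11 ± 0.19 log2 CPM for hypoxia and 6.91 ± 0.078 for normoxia (SD, n = 4 each), for a log2 change of 1.80 (standard error 0.088) or 3.49-fold. In CPM the level moved from 34.6 ± 4.77 to 120 ± 6.45 (SD, n = 4 each). Same-numbered samples differed by 1.42 on the log2 scale in pair 1 and by 1.91, 1.95 and 1.93 in pairs 2 to 4, so pair 1 showed the smallest difference. In these bulk samples, more cells with the transcript and more transcript per cell cannot be told apart. The family was selected on the difference of Gadd45g, so its ranks are a description. Among all 14369 tested genes, the log2 change of Gadd45g ranked 11 from the top. Among the 9395 genes with a mean of at least 3 log2 CPM it ranked 3. The gene just above it was Tfrc (transferrin receptor, log2 change 1.81, standard error 0.23) and the gene just below it was Cxcl14 (a chemokine, 1.65, standard error 0.32), both with larger errors. The libraries of the oxygen groups differed in their dependence on GC content. For each added 10 percentage points of GC, a gene's log2 CPM, taken against its average over the 8 samples, shifted by 0.074 to 0.18 in hypoxia and by -0.14 to -0.086 in normoxia. Gadd45g is rich in GC, at 59.9% of its longest transcript, more than 95.5% of the tested genes, and corrected for GC content and length its log2 change was 2.08.

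Gadd45b was also higher in normoxia, by less. Its counts were 976, 525, 422 and 454 in hypoxia and 589, 742, 726 and 760 in normoxia. On the log2 CPM scale these were 5.36, 5.40, 5.05 and 5.14 in hypoxia and 5.46, 5.75, 5.72 and 5.85 in normoxia. The groups did not overlap, but they came close, since normoxia replicate 1 at 5.46 was just above hypoxia replicate 2 at 5.40. The mean was 5.24 ± 0.17 for hypoxia and 5.69 ± 0.17 for normoxia (SD, n = 4 each), for a log2 change of 0.45 (standard error 0.10) or 1.37-fold. The differences within pairs 1 to 4 were 0.10, 0.34, 0.67 and 0.71, all in the same direction and smallest again in pair 1. With the correction for GC content and length (56.9% GC) the log2 change of Gadd45b was 0.67.

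Gadd45a had the lowest level and did not share this direction. Its counts were 309, 135, 132 and 164 in hypoxia and 129, 124, 147 and 138 in normoxia. The log2 CPM values were 3.71, 3.46, 3.39 and 3.68 in hypoxia and 3.29, 3.19, 3.44 and 3.41 in normoxia. The groups overlapped, as hypoxia replicate 3 lay below normoxia replicates 3 and 4. The mean was 3.56 ± 0.16 for hypoxia and 3.33 ± 0.11 for normoxia (SD, n = 4 each), for a log2 change of -0.23 (standard error 0.11). Normoxia was lower in pairs 1, 2 and 4, by -0.42, -0.27 and -0.28, and pair 3 differed by 0.041. Counting alone would give a spread of 0.11 in hypoxia and 0.13 in normoxia for these counts on the log2 scale. That is close to the SD seen in normoxia (0.11) and below the SD in hypoxia (0.16). For Gadd45g counting gives 0.066 and 0.036, and for Gadd45b 0.063 and 0.055, less than the SD between samples.

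**Figure D1:**
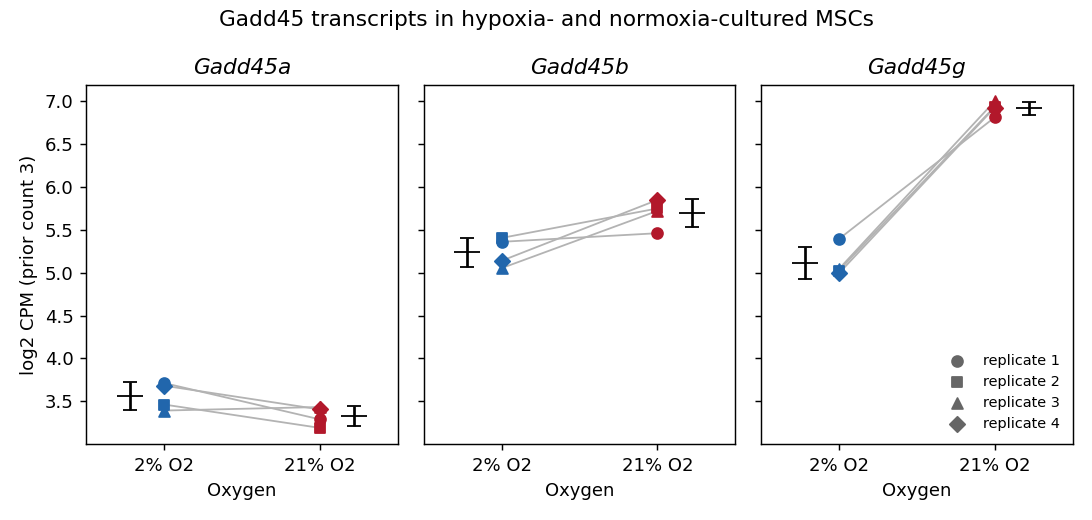
Level of each member (vertical axis, log2 CPM) at each oxygen level (horizontal axis). Symbols are samples, grey lines join samples of the same number, and bars beside them are the mean ± SD of 4 samples. Gadd45g goes from 5.11 to 6.91, Gadd45b from 5.24 to 5.69 and Gadd45a from 3.56 to 3.33.

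The values of the groups thus did not overlap for 2 of the 3 members, both higher in normoxia, where 17.1% of the 14369 tested genes did not overlap in that direction and 32.6% in either. Since the members were chosen with this contrast known, nothing is read from that count.

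To compare the members with each other, levels were divided by the length of their exons (1764 bases for Gadd45a, 1589 for Gadd45b and 1173 for Gadd45g). Per kilobase the order was Gadd45g, Gadd45b, Gadd45a in all 8 samples. In hypoxia the first 2 were near each other, at 4.88 ± 0.19 for Gadd45g and 4.57 ± 0.17 for Gadd45b (log2 CPM per kilobase, SD, n = 4), a gap that is not clear of their spread. With the length of the longest transcript in place of all exons, their order was the opposite in hypoxia replicate 2. Gadd45a was well below both at 2.75 ± 0.16. In normoxia the levels stood apart, at 6.68 ± 0.078 for Gadd45g, 5.02 ± 0.17 for Gadd45b and 2.51 ± 0.11 for Gadd45a (SD, n = 4).

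The makeup of the family pool changed with it. Gadd45g made up 51.8%, 45.8%, 51.1% and 48.0% of the summed level per kilobase in hypoxia replicates 1 to 4, and 74.2%, 72.8%, 73.5% and 71.0% in normoxia. Its share was nearly the same in every sample of a group and higher in every normoxia sample. Gadd45b went from 39.6 ± 2.96% to 23.1 ± 1.47% and Gadd45a from 11.2 ± 1.14% to 4.05 ± 0.30% (SD, n = 4 each). The share of Gadd45b was thus lower where its level was higher. The summed level was 60.3 ± 6.3 CPM per kilobase for hypoxia against 141 ± 8.65 for normoxia (SD, n = 4 each). The family was selected on the rise of Gadd45g, which by itself raises its share and the summed level, so these are descriptions.

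**Figure D2:**
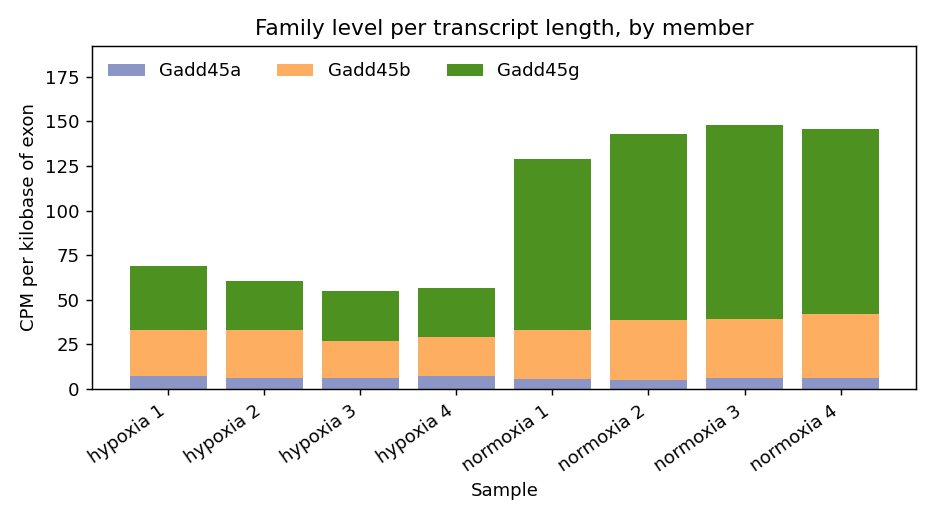
Summed level of the family in each sample (vertical axis, CPM per kilobase of exon), stacked by member, for the 4 hypoxia and 4 normoxia samples (horizontal axis). The columns stand between 54.9 and 69.0 in hypoxia and between 128.6 and 147.9 in normoxia, and most of the added height is Gadd45g.

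Each member was also compared with other genes over the 8 samples. For each, the 5 genes with the highest Pearson correlation of log2 CPM were taken from the 9394 other genes with a mean of at least 3 log2 CPM. All points share libraries, depth and the split into oxygen groups, so these are descriptions. The profile of Gadd45g was most like Hspa5 (the endoplasmic reticulum chaperone BiP), with r = 0.997, followed by Clip1, Dnttip2, Exoc2 and Cul4a (0.994 for the fifth). Their log2 changes, 0.45 to 0.81, were all smaller than that of Gadd45g. Gadd45b was most like Dido1 (0.992), Ice1, Sytl2, the nuclear long non-coding RNA Neat1 and Setd5 (0.98 for the fifth). Gadd45a was most like Safb (0.945), Dusp18, Plgrkt, the cell cycle kinase gene Cdk2 and Ube2g1 (0.902 for the fifth), whose log2 changes were -0.25 to -0.11. No gene was named for more than 1 member, but lists of 5 from 9394 genes are too short to show how alike the members are. Between the members themselves, r was 0.872 for Gadd45b with Gadd45g. It was -0.644 for Gadd45a with Gadd45g and -0.485 for Gadd45a with Gadd45b.

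Genes whose products act with Gadd45 proteins, or upstream of them, were then compared between the oxygen levels with limma-trend. Over all 14369 tested genes, 34.6% passed this threshold, 18.0% higher and 16.5% lower in normoxia, and the median log2 change was 0.00485. With same-numbered samples as pairs 46.0% were past the threshold, 23.3% higher and 22.7% lower. The number of called genes over the whole table also moved with the other fits, from 4970 in the main fit. It was 4303 with the GC and length correction, and 6209 with this correction and pairs together. Leaving out single samples gave 3840 to 5413. Counts of calls in the lists below under these fits stand beside these totals.

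In the MAP kinase arm, 18 of 19 genes were tested and 8 changed, 7 higher and 1 lower in normoxia, with a median log2 change of 0.17. After correction for GC content and transcript length 7 were higher and 0 lower, with a median of 0.061. Map3k4, the kinase that Gadd45 proteins bind and activate, was the 1 lower gene, at 4.37 against 4.64 log2 CPM in hypoxia (log2 change -0.27, standard error 0.089, limma-trend adjusted p = 0.035). Dusp1, a phosphatase that switches off p38 and JNK, rose by 0.66 (standard error 0.19, limma-trend adjusted p = 0.016). Mapk13 (a p38 kinase) and Mapkapk3 (a kinase activated by p38) rose by 0.47 and 0.44. Mapk11, another p38 kinase, was just past the threshold at a log2 change of 0.39 (limma-trend adjusted p = 0.0499), but not with edgeR (adjusted p = 0.052) or DESeq2 (0.069), and over all alternatives its adjusted p ranged from 0.001 to 0.14. Map2k4, which phosphorylates JNK and p38 and was named after its values were seen, rose by 0.32. Map2k7, the JNK kinase that Gadd45b can bind and inhibit, was not past the threshold at a log2 change of 0.20 (limma-trend adjusted p = 0.099). Once GC content and transcript length were corrected for, the change of Map2k7 was 0.32 and under the threshold of 0.05 (limma-trend adjusted p = 0.017, over all alternatives 0.0015 to 0.28), and that of Map3k4 was -0.18 and not (0.099, over all alternatives 0.012 to 0.099). Only 4 of the 18 genes were called without hypoxia replicate 4 or without normoxia replicate 1, and 5 without normoxia replicate 3, and of the genes named Map2k4 alone was called whichever sample was left out (limma-trend adjusted p = 0.066 to 0.14 for Mapk11 without any sample other than hypoxia replicate 1 or normoxia replicate 2, 0.051 for Dusp1 without hypoxia replicate 4, 0.068 to 0.082 for Mapk13 without hypoxia replicate 4 or normoxia replicate 1 or 3, 0.055 to 0.082 for Map3k4 without hypoxia replicate 1, 2 or 3 or normoxia replicate 1, and 0.052 to 0.099 for Mapkapk3 without any sample other than hypoxia replicate 3).

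Of the 12 partners in the cell cycle, all tested, 2 changed and the median log2 change was -0.025, or -0.11 after the GC and length correction. Cdkn1a, which encodes p21, rose by 0.20 (standard error 0.070, limma-trend adjusted p = 0.041), from a high level of 8.39 to 8.59 log2 CPM. Cdc25b, a phosphatase that activates Cdk1, fell by 0.38 (standard error 0.12, limma-trend adjusted p = 0.026). The direct partners Cdk1, Ccnb1, Pcna, Aurka and Npm1 had log2 changes of 0.089, -0.035, 0.10, 0.039 and -0.016, none of which passed (limma-trend adjusted p = 0.72, 0.93, 0.48, 0.92 and 0.88). Of these 5, Npm1 passed after the GC and length correction, at a log2 change of -0.16 (limma-trend adjusted p = 0.033, over all alternatives 0.0024 to 0.98). Gadd45gip1, a mitochondrial ribosome protein first found as a Gadd45g binder, had 53 to 116 counts and a log2 change of -0.27, which did not pass (limma-trend adjusted p = 0.25). Both calls were lost when some samples were left out, with limma-trend adjusted p = 0.052 to 0.14 for Cdkn1a without any sample other than hypoxia replicate 3 or normoxia replicate 4, and 0.058 to 0.070 for Cdc25b without any sample other than hypoxia replicate 2 or normoxia replicate 1. The call of Cdc25b was also lost with the GC and length correction, at -0.29 (limma-trend adjusted p = 0.093, over all alternatives 0.0021 to 0.093). That of Cdkn1a was kept with this correction, at 0.33 (limma-trend adjusted p = 0.0025, over all alternatives 2.5e-07 to 0.14). It was lost with RLE size factors and with no filter (limma-trend adjusted p = 0.051 and 0.07).

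The genes linked to DNA demethylation moved both ways. Their list also holds genes of the DNA methyltransferases (Dnmt), which add the mark rather than remove it. Of 17, 16 were tested and 7 changed, 3 higher and 4 lower, with a median of -0.034. Ercc5, which encodes the repair nuclease XPG, rose from 4.14 to 4.99 log2 CPM (log2 change 0.85, standard error 0.096, limma-trend adjusted p = 0.00011). Tdg, the thymine DNA glycosylase that removes oxidised methylcytosine, rose by 0.38 (standard error 0.090, limma-trend adjusted p = 0.0064). Tet1, a methylcytosine dioxygenase, fell by 0.94 (standard error 0.21, limma-trend adjusted p = 0.0051). Its level was low, with 13 to 63 counts per sample over both groups. Neil1, a DNA glycosylase, fell by 0.52 (standard error 0.16, limma-trend adjusted p = 0.024). The number of calls was 4 without hypoxia replicate 2 or normoxia replicate 1 and 3 without hypoxia replicate 3, and 4 with the GC and length correction, 3 higher and 1 lower. Neil1 was not past the threshold without hypoxia replicate 2, 3 or 4 or normoxia replicate 1 or 3 (limma-trend adjusted p = 0.051 to 0.066), nor with the GC and length correction, at -0.35 (0.12, over all alternatives 0.0042 to 0.12).

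Of the 14 upstream regulators 6 fell and 0 rose, with a median of -0.073. Which of them were higher depended on the fit, and the 3 genes concerned were named after their values were seen. With same-numbered samples as pairs, the DNA repair gene Brca1 was higher by 0.37 (limma-trend adjusted p = 0.037, over all alternatives 0.037 to 0.36). With the GC and length correction, Atf4, a factor of the stress response, was higher by 0.25 (0.012, over all alternatives 9.7e-05 to 0.53). With both in 1 fit, Atf4 and the growth regulator gene Myc were higher (Myc by 0.24, limma-trend adjusted p = 0.0073, over all alternatives 0.0073 to 0.88) and 7 were lower. Trp53, which encodes p53, the first known inducer of Gadd45a, was lower at 6.26 against 6.60 log2 CPM (log2 change -0.34, standard error 0.065, limma-trend adjusted p = 0.0018). Egr1, a stress-induced zinc finger factor, fell by 0.67 (standard error 0.12, limma-trend adjusted p = 0.0013), and the ligand gene Tgfb1, whose product induces Gadd45b, by 0.46. Foxo3 and the NF-kappaB subunit gene Rela fell by 0.37 and 0.36. With the GC and length correction the change of Rela was -0.16 and not past the threshold (limma-trend adjusted p = 0.11, over all alternatives 1.2e-05 to 0.11). With the GC and length correction alone, 5 of the list were lower and 1 was higher. The regulators stand beside Gadd45b and Gadd45g, which were higher in normoxia, and Gadd45a, at a log2 change of -0.23. A link between regulators and members was not tested.

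Among 13 other targets of p53, all tested, 9 changed, 7 higher and 2 lower in normoxia, and the median log2 change was 0.43. Pmaip1, which encodes the cell death protein Noxa, rose by 1.42 (standard error 0.23, limma-trend adjusted p = 0.00070). It had 20 to 110 counts per sample over both groups. Mdm2, the ubiquitin ligase that restrains p53, rose from 5.90 to 6.84 log2 CPM (log2 change 0.94, standard error 0.063, limma-trend adjusted p = 9.8e-06). Eda2r and the kinase gene Plk2 rose by 0.92 and 0.77. The 2 lower genes, named after their values were seen, were Bbc3 (which encodes Puma) and Zmat3, at log2 changes of -0.36 and -0.30. With the GC and length correction the change of Bbc3 was -0.086 and not past the threshold (limma-trend adjusted p = 0.58, over all alternatives 0.011 to 0.58), which left 8 higher and 1 lower, and its call was also lost without any sample other than hypoxia replicate 1 or normoxia replicate 2 or 4. Gadd45a, a p53 target that is not on this list, had its log2 change of -0.23 beside these. Leaving out single samples gave 8 to 10 calls.

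Of 11 other growth arrest and stress genes, which include those named for the same screens as Gadd45, 7 changed, 2 higher and 5 lower, with a median of -0.16. With the GC and length correction 3 were higher and 3 lower, and the median was -0.003. Ppp1r15a, also known as Gadd34, which restores translation after stress, rose by 0.43 (standard error 0.10, limma-trend adjusted p = 0.0058), and the antiproliferative gene Btg2 rose by 0.40. Ddit3, known as Gadd153 or Chop and named here after its values were seen, had a log2 change of 0.092 and was not past the threshold (limma-trend adjusted p = 0.43). Trib3 and Chac1, which lie downstream of Atf4 and Chop, fell by 0.68 and 0.41 (limma-trend adjusted p = 2.7e-05 and 0.0014). After the GC and length correction the change of Chac1 was -0.20 and not past the threshold (limma-trend adjusted p = 0.074, over all alternatives 1.4e-05 to 0.074). The same correction ended the calls of the stress genes Ddit4 and Sesn2, named after their values were seen, whose changes went from -0.21 to -0.003 and from -0.27 to -0.10 (limma-trend adjusted p = 0.97 and 0.17, over all alternatives 0.0032 to 0.97 and 0.00021 to 0.17). Atf3, likewise named afterwards, had a log2 change of 0.68 that was not past the threshold (limma-trend adjusted p = 0.051) but passed with the correction (0.038), with pairs (0.0025), with edgeR (0.031) and with DESeq2 (0.014), and over all alternatives its adjusted p ranged from 0.00062 to 0.16.

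Of 15 immediate early genes, which cells switch on within minutes of a stimulus, 8 changed, 6 higher and 2 lower, with a median of 0.17. Egr1, also of this class, was listed with the upstream regulators, where it fell by 0.67, and is not in these counts. Fos rose by 0.80 (standard error 0.20, limma-trend adjusted p = 0.0093) and the nuclear receptor gene Nr4a1 by 0.79 (0.22, 0.014). Their highest counts in any sample of either group were 137 and 100. Fosl1 rose by 0.74 (standard error 0.25, limma-trend adjusted p = 0.035). Klf2 fell by 0.92 (standard error 0.089, limma-trend adjusted p = 6.2e-05), and Jund, named after its values were seen, was the other lower gene at a log2 change of -0.74. The rise of Fosl1 was not past the threshold with edgeR (adjusted p = 0.060) or DESeq2 (0.11), nor with limma-trend without any sample other than hypoxia replicate 1 or normoxia replicate 4 (adjusted p = 0.0503 to 0.11), and over all alternatives its adjusted p ranged from 1.3e-10 to 0.11.

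**Figure D3:**
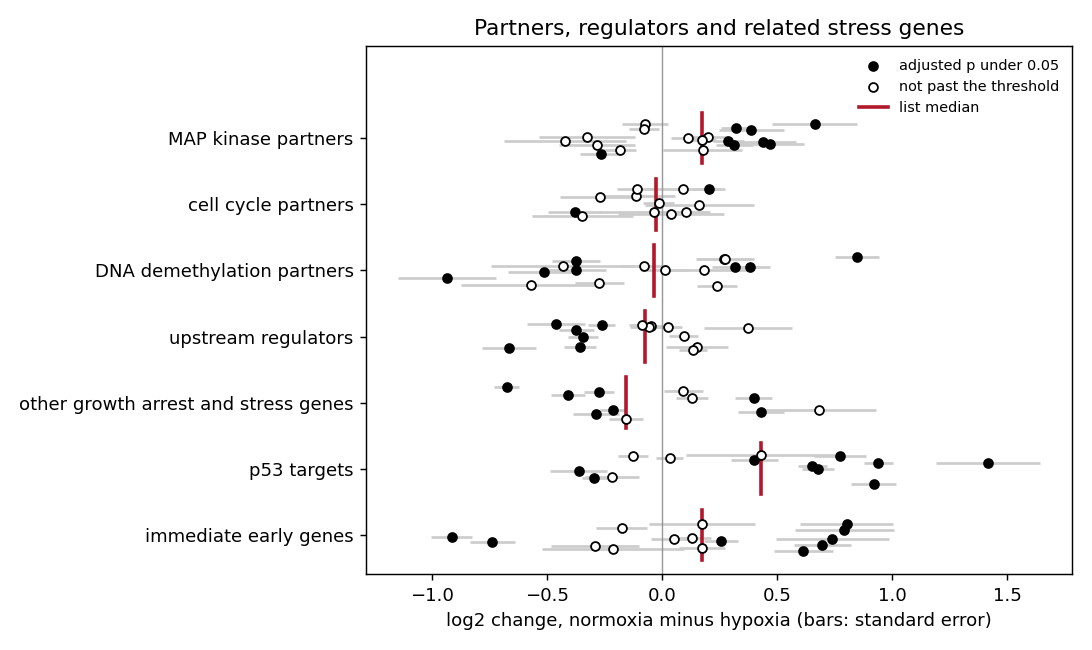
Log2 change between normoxia and hypoxia (horizontal axis) of every tested gene in the 7 lists (vertical axis), with bars of 1 standard error. Filled points are past the threshold, open points are not, and red lines are list medians, which range from -0.16 to 0.43.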

How the data were processed

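The authors isolated total RNA from sorted MSCs, prepared NEBNext libraries, sequenced them as single-end reads and processed them with zUMIs, STAR, samtools and featureCounts on mm10 with Ensembl annotation. The deposited values are raw counts per gene, not normalized. Whether counting used strand, introns or reads with several places is not stated. Symbols, positions, exon lengths and GC content were taken from GENCODE M21 (GRCm38), which named 53360 of 53465 identifiers. As in the study's own methods, filterByExpr selected genes with a minimum count of 5 (14369 kept, 99.9% of counts) and groups were compared by limma-trend (limma 3.58.1, edgeR 4.0.16, R 4.3.3), with TMM factors, a prior count of 3, Benjamini-Hochberg adjustment over all tested genes and a threshold of 0.05. A positive log2 change means higher in normoxia, and the prior count shrinks it for low genes. Counts by sample are in the report, and counting error does not cover other sources of spread. The edgeR quasi-likelihood test, DESeq2 1.42.0, RLE size factors, no filter, a prior count of 1, a replicate block, a correction for GC content and transcript length (natural splines with 5 degrees of freedom) and leaving out each sample were alternatives. Both groups carry the numbers 1 to 4, and sorted cells were divided between conditions in the study. Deviations of same-numbered samples from their group means correlated across genes at 0.47, 0.28, 0.25 and 0.17. Samples of unlike number were not correlated for comparison, and for Gadd45g the deviations had opposite signs within every pair. The numbers were used as pairs only in the replicate block and in differences by pair, while the main calls came from the unpaired fit. The members and gene lists were chosen with earlier results of these data known. Genes named are the members, up to 4 called genes of each list with the largest changes, direct Gadd45 partners, Trp53, the 5 most correlated genes of each member and the neighbours of Gadd45g in rank. The rest, marker genes included, were picked with their values known. Scripts were tested on simulated data. No sample was left out.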

Additional observations from a re-analysis of the deposited data

Results flagged for a closer look

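Within each group of 4 samples, 106 sets of values were searched for a sample that lay far from the other 3, by dividing its gap to the nearest one by the whole range and comparing this ratio with Dixon's limit of 0.829. There were 7 sets with such a sample, where chance gives about 1 in 20 sets, or 5.3 here. Hypoxia replicate 1 had 25132141 counts in all against 12929564 to 13219647 in the other hypoxia samples (ratio 0.976). The same sample had the highest Gadd45g level of its group, at 5.39 log2 CPM against 4.99 to 5.04 (ratio 0.875), and the highest Plk2 level, at 6.47 against 5.90 to 5.92 (0.978). Without it the log2 change of Gadd45g was 1.89 in place of 1.80, and that of Plk2 remained past the threshold. The part of its depth in these levels was not tested. Among the other genes named, Ercc5 was at 5.14 log2 CPM in normoxia replicate 2 against 4.93 to 4.95 in the rest of its group. Rela was at 6.47 in hypoxia replicate 2 against 6.61 to 6.62. Trib3 was at 6.45 in normoxia replicate 4 against 6.38 in the rest of its group, and Fos was at 3.34 in normoxia replicate 3 against 2.72 to 2.82. The calls of Ercc5, Trib3, Fos and Rela were kept whichever sample was left out.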

How the results depend on the processing

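The log2 changes of the members kept their direction under all 16 alternatives, from -0.29 to -0.17 for Gadd45a, 0.39 to 0.67 for Gadd45b and 1.76 to 2.08 for Gadd45g. The GC and length correction, with or without the replicate block, gave 0.67 for Gadd45b and 2.08 for Gadd45g. The share of Gadd45g in the family level was 45.2% in hypoxia and 69.9% in normoxia with the longest transcript as length. The replicate block, which pairs same-numbered samples, raised the number of changed genes from 4970 to 6610 and changed no call among the 35 genes named by the rule, but gained those of Brca1 and Atf3 among 12 genes named after their values were seen. Of the cell cycle partners, 1 was called with RLE size factors and 1 with no filter, and 4 when the block and this correction were used in 1 fit. Leaving out single samples gave 0 to 1 calls in this list with limma-trend (1 to 4 genes at an unadjusted p under 0.05), 4 to 7 for MAP kinase partners and 3 to 9 for DNA demethylation partners, which had 4 with the GC and length correction. Changes near zero turned sign. That of Aurka was -0.019 with edgeR and -0.010 with DESeq2, and leaving out single samples gave -0.15 to 0.27 for Aurka, -0.23 to 0.21 for Ccnb1, -0.062 to 0.24 for Cdk1 and -0.078 to 0.011 for Npm1, none of them called in these fits. Over the named list genes and alternatives, 653 values kept direction and call, 73 lost the call, 15 gained it and 11 turned sign. The causes were not tested. Depth limits Gadd45a most, with 124 to 309 counts per sample.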
